A study of Homo sapiens with 2 samples.

Results

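MAFF, MAFG and MAFK, the 3 small MAF genes, were examined for NRF1 binding in HCT116 cells in which the proteasome had been inhibited. Their peaks were taken as every NRF1 ChIP-seq peak whose centre lay within 50 kb of an annotated transcription start site (TSS) of one of the 3 genes, together with any site that the study's annotation lists for them. This rule gave 9 of the 5683 deposited peaks, 2 for MAFF, 4 for MAFG and 3 for MAFK. The 3 sites listed for these genes in the study's annotation were all among the 9, and the 3 genes are part of 20163 protein-coding genes that were compared.

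Small MAF proteins are basic leucine zipper factors that bind DNA but have no transactivation domain of their own. NRF1, encoded by NFE2L1, and its relatives of the cap'n'collar (CNC) group bind DNA as heterodimers with a small MAF protein, and the pair recognises the antioxidant response element (ARE). BACH1 and BACH2 use the same partners as repressors, and small MAF homodimers bind a longer palindromic sequence, the MAF recognition element (MARE). When the proteasome is inhibited, NRF1 escapes degradation and raises the expression of proteasome subunit genes.

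The cells were of the HCT116 line, derived from a human colorectal carcinoma, and were given the proteasome inhibitor MG132, a peptide aldehyde. A single NRF1 ChIP library was analysed, from cells exposed to MG132 at 1 µM for 16 h, and its input library, from cells given the same treatment, was not analysed here. The values are therefore those of 1 library with neither untreated cells nor replicates, and the depth behind each peak is unknown. Each deposited peak carries a score. In MACS this is −log10 of the peak's p-value multiplied by 10, so that a higher score marks a less probable enrichment and is not a measure of occupancy.

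The ARE sequences of the peaks are given first because they vary among the peaks, including peaks of the same gene. AREs were searched on both strands as TGAGNNNGC or TGACNNNGC, and the longer form is TGAGTCAGC or TGACTCAGC, which is contained in the consensus. The MAFG locus held 2 peaks with the longer form in intron 1 of the canonical transcript MAFG-201. The first, 4110 bp downstream of the canonical TSS and 93 bp upstream of the TSS of the shorter transcript MAFG-202, carried a palindrome in which the longer form was read on both strands. Its surrounding 121 bases (hg19, plus strand, chr17:79881436-79881556, with the palindrome in capitals) and those of the second peak (chr17:79884787-79884907, with the longer form in capitals), 712 bp downstream of the canonical TSS, were as follows, and neither stretch overlapped an annotated UTR.
MAFG intron 1, 4110 bp: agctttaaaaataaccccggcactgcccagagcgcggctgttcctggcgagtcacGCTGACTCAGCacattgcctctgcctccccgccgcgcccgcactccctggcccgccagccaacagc
MAFG intron 1, 712 bp: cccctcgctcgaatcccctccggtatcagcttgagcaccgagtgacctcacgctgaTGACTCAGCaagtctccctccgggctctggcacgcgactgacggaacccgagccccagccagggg

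Of the other peaks, 6 are each represented by 1 ARE, in capitals, with 10 bases on both sides, read 5′ to 3′ on the strand that carries the match. Only the MAFF peak in TMEM184B and the intergenic MAFK peak held the longer form. The sites lie on hg19 at chr22:38577795-38577803 (minus strand), chr22:38637067-38637075 (plus), chr17:79856686-79856694 (minus), chr17:79874885-79874893 (plus), chr7:1553173-1553181 (plus) and chr7:1573660-1573668 (plus), in the order of the lines.
MAFF, PLA2G6 start: gtagaagtgcTGAGTAAGCcgaggtgagt
MAFF, TMEM184B intron: acggaacaggTGACTCAGCacaggagaag
MAFG, ANAPC11 intron: gggtgtctgaTGAGTCCGCagatgcactg
MAFG, SIRT7 intron: agtgtgtgtcTGAGTTTGCtctagcgacc
MAFK, intergenic: gtcaaagccgTGAGTCAGCagttatgagg
MAFK, intron 1: tgtagcggaaTGACACAGCttcctcagac

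MAFG was the small MAF gene with NRF1 peaks at its own promoters. The peak 93 bp upstream of MAFG-202 (chr17:79881055-79881948) scored 1022.83 and ranked 9 of 5683 peaks, above 99.8% of the list. The peak 712 bp into the gene (chr17:79884421-79885377) scored 528.72 and ranked 104. Both lay within 2 kb of a MAFG TSS. At least 1 such peak was found at 6.03% of protein-coding genes, and 2 or more at 0.352%. Among the 1215 protein-coding genes with a peak within 2 kb, MAFG stood at position 3 by its highest score, below PSMD14, a deubiquitinating subunit of the proteasome lid, and UNKL. Of the 9 highest-scoring peaks in the list, the MAFG peak was 1 of 3 within 2 kb of a protein-coding TSS. These 2 peaks were also the widest of the 9, at 894 and 957 bp against a median of 501 bp for all peaks, and were wider than 98.0% and 98.5% of the list. The intron that holds the first of them is shared with an unnamed lncRNA gene, ENSG00000264769.

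The other 2 MAFG peaks were weak and lay at other genes. One (chr17:79856135-79856921) scored 82.5, ranked 3291, and was centred 532 bp downstream of a TSS of ANAPC11, which encodes a catalytic subunit of the anaphase-promoting complex, in its intron 3. The other (chr17:79874251-79874903) scored 53.87, ranked 5246, and was centred 249 bp upstream of a TSS of SIRT7, a sirtuin deacylase, in intron 3 of its canonical transcript. They lay 24880 bp and 6831 bp from the nearest MAFG TSS. Both scores were below the median of all peaks, 91.86, whereas the 2 intronic MAFG peaks exceeded it.

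MAFK had 3 peaks, with the strongest outside the gene. That peak (chr7:1552912-1553537), 17114 bp upstream of the MAFK TSS, scored 272.73 and ranked 523, above 90.8% of the list. It was in no annotated transcript, and the nearest protein-coding TSS, 9199 bp away, was that of INTS1, a subunit of the Integrator complex. In intron 1 of MAFK, 3361 bp downstream of the TSS, a peak (chr7:1573502-1573896) scored 64.22, ranked 4350 and was the narrowest of the 9 at 395 bp. It was the MAFK peak whose nearest protein-coding TSS was that of MAFK. The last of the 3 peaks (chr7:1610115-1610585) scored 59.16, ranked 4780 and lay 32006 bp downstream of the nearest MAFK TSS, but 291 bp from a TSS of PSMG3, which encodes a proteasome assembly chaperone. The centre of this peak falls in an annotated UTR of PSMG3 and in intron 1 of PSMG3-AS1.

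MAFF had 2 peaks, neither of them near its own TSSs. The closer (chr22:38577509-38578162) was centred 18939 bp upstream of the nearest MAFF TSS, scored 181.87, ranked 1055 and coincided with a TSS of PLA2G6, a calcium-independent phospholipase A2, at a distance of 0 bp. Its AREs fall in exon 1 of PLA2G6, in the UTR of the canonical transcript. The more distant peak (chr22:38636767-38637244) scored 128.45, ranked 1804 and lay 27463 bp downstream of the nearest MAFF TSS, in intron 3 of TMEM184B, a transmembrane protein gene. No peak was called within 10 kb of any of the 7 distinct MAFF TSSs. The order of the genes by their highest score was thus MAFG, MAFK and MAFF, and with 1 library the spread of these scores is unknown.

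**Figure D1:**
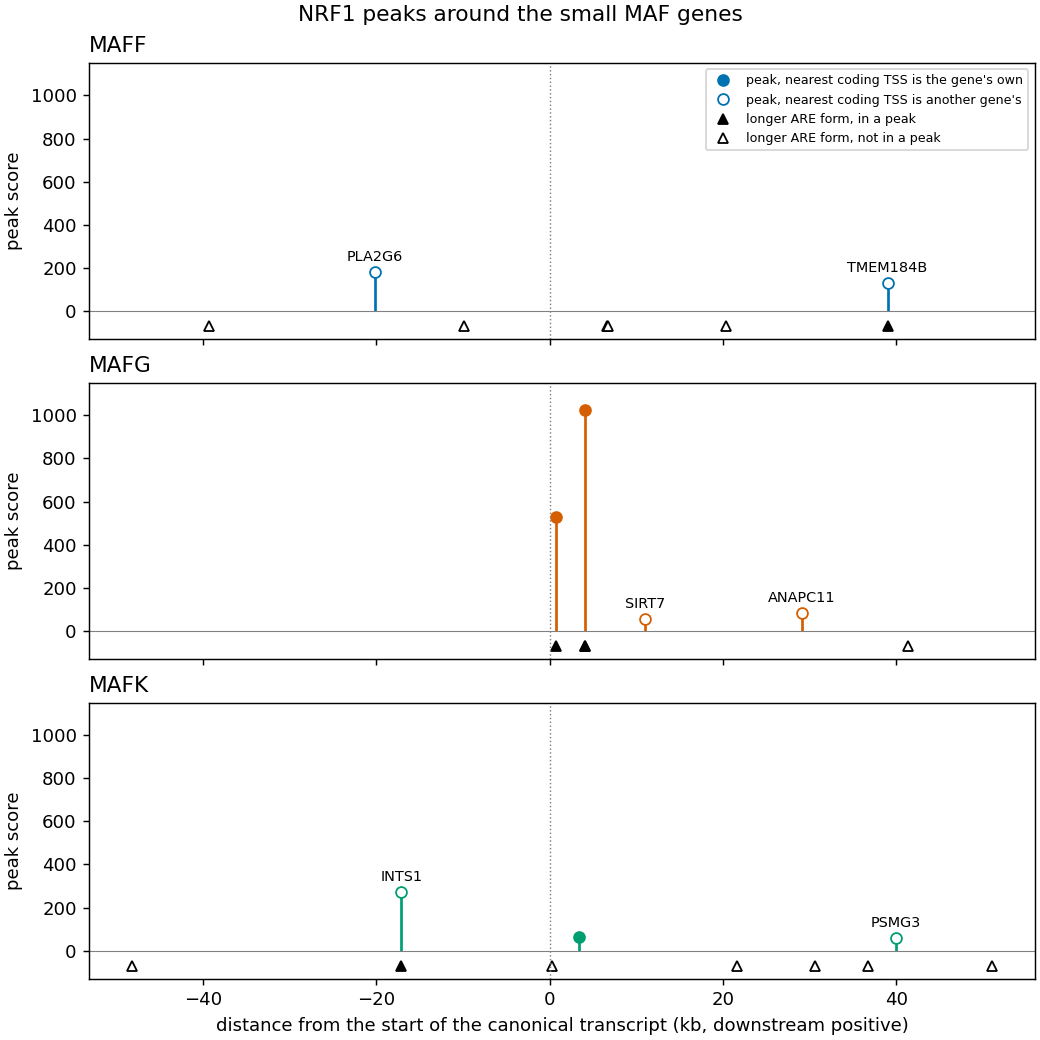
NRF1 peaks within 50 kb of MAFF, MAFG and MAFK, with the distance of the peak centre from the canonical start on the x axis (kb) and the peak score on the y axis. Filled circles are peaks nearest to the gene's own TSS, open circles are named by the protein-coding gene whose TSS is nearer, and triangles mark longer-form AREs inside (filled) or outside (open) a peak. The 2 tallest stems, 1022.83 and 528.72, stand beside the MAFG start.

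All 3 small MAF genes had a peak within 50 kb, against 32.7% of protein-coding genes. MAFF, with 2, was among the 8.67% of genes with 2 or more, MAFK, with 3, among the 2.39% with 3 or more, and MAFG, with 4, among the 0.575% with 4 or more. Every peak also lay within 50 kb of other protein-coding genes, 2 for each MAFF peak, 8 or 9 for each MAFG peak and 2 or 3 for each MAFK peak. Of the 9 peaks, 3 had the small MAF gene's own TSS as the nearest protein-coding TSS, 2 at MAFG and 1 at MAFK. The other 6 were nearest to another gene, and 5 of them lay within 2 kb of that gene's TSS. The matching shares over all peaks were not computed, so these counts only describe the 9 peaks.

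**Figure D2:**
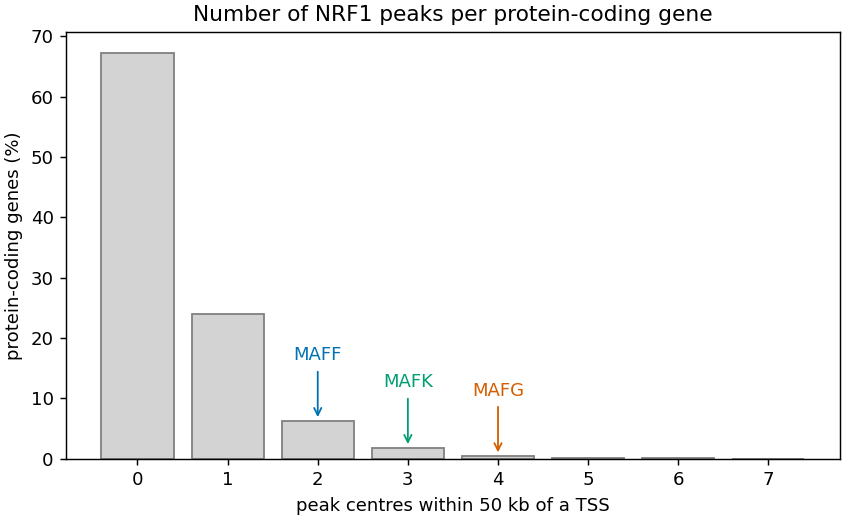
Share of the 20163 protein-coding genes (y axis, percent) by the number of NRF1 peak centres within 50 kb of a TSS (x axis). Arrows mark MAFF with 2 peaks, MAFK with 3 and MAFG with 4.

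The 9 scores ran from 53.87 to 1022.83, and those of all peaks from 50 to 3100. Their median was 128.45, against 91.86 for all peaks, and 5 of the 9 were above the latter. The 5 were both MAFF peaks, the intronic MAFG peaks and the intergenic MAFK peak. At the lower end, 4 peaks scored under 100, 2 of MAFG and 2 of MAFK.

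**Figure D3:**
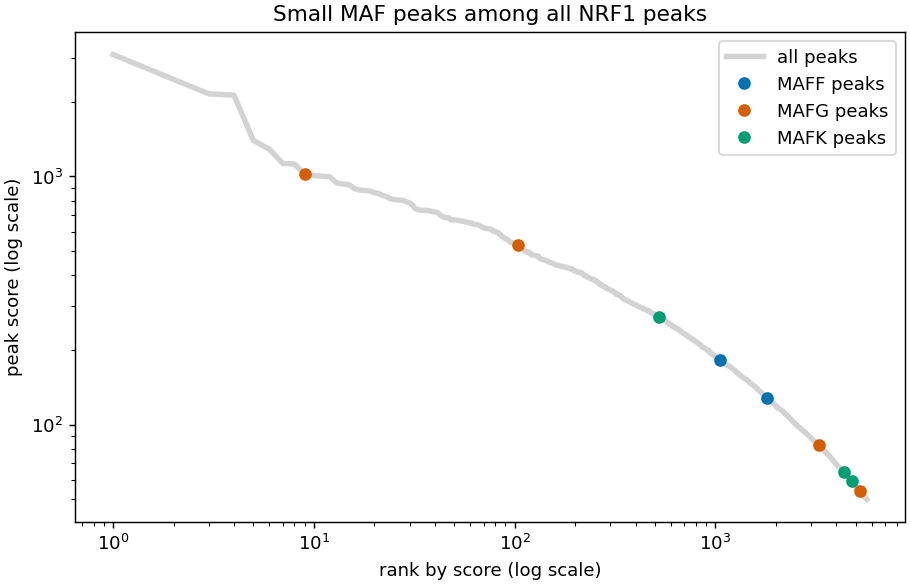
Score of each NRF1 peak (y axis, log scale) against its rank in the list (x axis, log scale). The grey line holds all 5683 peaks and the coloured points the 9 small MAF peaks, which run from rank 9 (MAFG) to rank 5246 (also MAFG).

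All 9 peaks contained an ARE, as did 87.4% of the peaks searched (95% Wilson interval 86.5 to 88.2%, which covers counting error only). The count includes the peak at PSMG3, whose ARE is not described here. Flanks of the same length, starting 2 kb from the peak edge, held an ARE at 3 of 9 peaks on the lower-coordinate side and at 4 of 9 on the other. The flanks of all other peaks were not searched, so this difference cannot be called particular to the small MAF peaks. The 9 peaks held 14 AREs of 10 different sequences, and overlapping matches reduced these to 12 separate stretches. The longer form was present in 4 peaks, 2 at MAFG, 1 at MAFF and 1 at MAFK, against 61.3% of all peaks searched (60.0 to 62.6%). The share among the small MAF peaks was thus not above that of the list. In 7 of the 9 peaks an ARE lay within the central 200 bp, as in 80.2% of all peaks searched. The 2 exceptions were the peaks in ANAPC11 and SIRT7, with their AREs 162 and 312 bp from the centre.

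The palindrome at MAFG was uncommon among NRF1 peaks. A longer form that can be read on both strands occurred in 58 of 5673 peaks searched, or 1.02% (0.792 to 1.32%), and in 1 of the 9 small MAF peaks. Its centre lay 6 and 4 bp from the peak centre for the matches on the minus and plus strand. By score, the share with a palindrome was 1.98% from 500 up to 1000, 0.916% from 100 up to 500 and 1.04% below 100. Among the 11 peaks that scored at least 1000, the MAFG peak was the only one with the palindrome (9.09%, 1.62 to 37.7%). Compared with the 13-base MARE, the best ARE of this peak matched 12 bases, as did the longer form in the other intronic MAFG peak, 52 bp from its centre. Matches of 12 or 13 bases were found in 190 peaks, or 3.35% (2.91 to 3.85%). At the 7 other small MAF peaks the best match was 8 to 11 bases. Only matches to the ARE consensus were scored, so any longer form matches at least 9 of the 13 bases. The longer forms in the TMEM184B and intergenic MAFK peaks matched 11 and 10, so their counts differ from those at MAFG through flanking bases only. The base that differs between TGACTCAGC and TGAGTCAGC does not enter, because the MARE accepts C or G there. The 2 intronic MAFG peaks also held a second stretch each, TGAGCCGGC at chr17:79881663-79881671 and TGACGCGGC at chr17:79884983-79884991, at 166 and 88 bp from the peak centre. More than 1 ARE was common in the list, with 2 or more in 34.5% of the peaks searched.

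By the search rule, the other AREs can depart from the longer form only in the 3 open bases of the consensus. In the MAFF peak at PLA2G6, TGACCTCGC lay next to TGAGTAAGC, at 54 and 36 bp from the centre. In MAFK intron 1, TGACACAGC and TGAGGAAGC overlapped on opposite strands, at 35 and 28 bp. How often each sequence falls in a peak differs over the genome. On hg19, TGACTCAGC lay in a peak at 9.23% of its 33199 sites and TGAGTCAGC at 4.26% of its 19933, the highest shares of the 128 sequences that match the consensus. TGACGCGGC, at MAFG, followed at position 4 with 1.57%, and TGACACAGC, found in MAFK intron 1, at position 10 with 0.846%. At the low end, TGAGTTTGC in the SIRT7 peak stood at position 114 with 0.119% and TGAGGAAGC in MAFK intron 1 at position 124 with 0.0963%. These shares count sites of 1 peak list, in which these 9 peaks are themselves included.

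**Figure D4:**
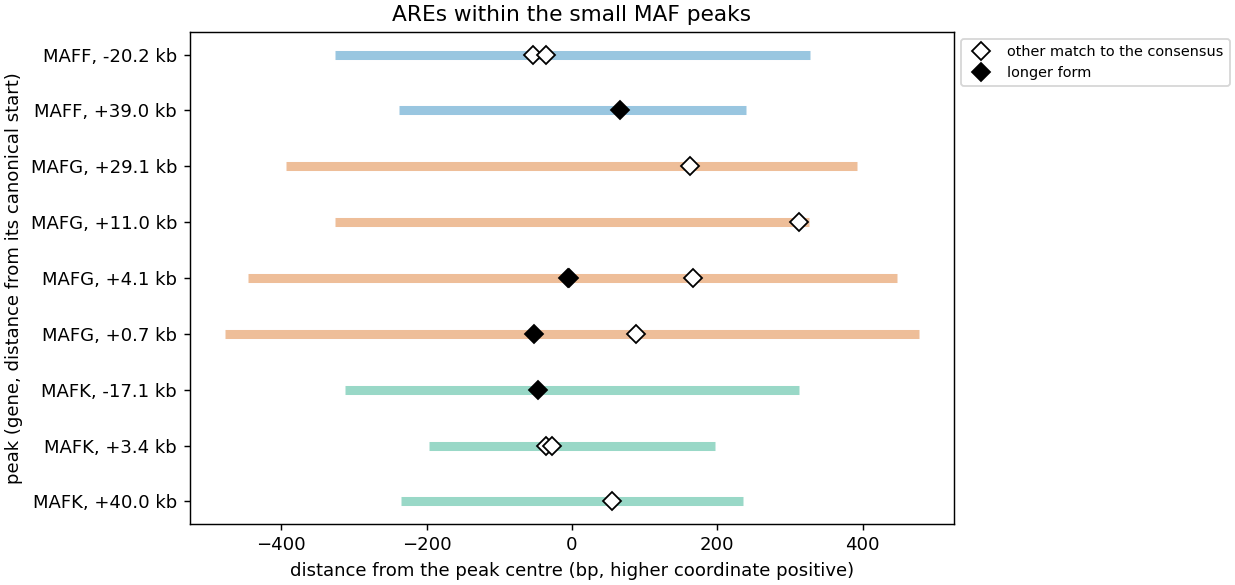
Extent of the 9 small MAF peaks (bars) around the peak centre (x axis, bp) with their AREs, filled for the longer form and open for other matches to the consensus. Each row is named by the gene and the distance from its canonical start, and the filled marks lie within 66 bp of the centre.

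Most AREs of the 3 loci were not in a peak. Within 50 kb of its TSSs, MAFF had 125 consensus AREs with 3 in peaks (2.4%), MAFG 128 with 7 in peaks (5.47%) and MAFK 160 with 4 in peaks (2.5%). Over the whole genome 0.394% of 2027857 consensus sites fell in a peak. Since each locus was known to hold peaks, these shares describe it and carry no test. Within 2 kb of a TSS, 5 of 14 AREs were in peaks at MAFG, 0 of 14 at MAFK and 0 of 13 at MAFF. MAFK and MAFF had no peak within 2 kb, so their values were fixed by peak position. The share of consensus AREs in peaks near all protein-coding TSSs was not computed. Of the longer form, MAFG had 4 sites with 3 in peaks, MAFF 6 with 1 in a peak and MAFK 7 with 1 in a peak. All 3 longer-form sites within 2 kb of a MAFG TSS were in peaks, but 2 of them are the strands of 1 palindrome. Of the 4699 such sites near all protein-coding TSSs, 11.3% were in peaks. Consensus and longer-form sites were counted on each strand, so a palindrome adds 2 to those counts. MAFG was known to hold peaks near its TSSs, so this share too carries no test.

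Both other genes had a longer-form ARE in their intron 1 without a peak. In intron 1 of MAFK, 278 bp from the TSS, TGACTCAGC at chr7:1570612-1570620 (minus strand) was not in a peak. It matched 9 of the 13 MARE bases, the fewest that a longer form can match. The site is shown here because the same letters occur in both intronic MAFG peaks.
MAFK intron 1, not in a peak: caggcggccgTGACTCAGCggccaggtag
In intron 1 of MAFF, 6671 bp from the canonical TSS, a palindromic longer form (chr22:38604668-38604676 on the minus strand) matched 11 of the 13 MARE bases and was likewise not in a peak. Over the genome 4.2% of 1665 palindromic matches fell in a peak, against 7.37% of the 53132 sites of the longer form as a whole. Here each palindrome is a single match, whereas the longer-form sites are counted on each strand. The absence of a peak says only that none passed the authors' threshold in this library.

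Most genes of the factors that pair with small MAF proteins had a peak near a TSS, as MAFG did but MAFF and MAFK did not. Of the 7 genes in this list, to which KEAP1 was added although it is not such a factor, 6 had a peak within 50 kb and 5 within 2 kb, beside 3 of 3 and 1 of 3 for the small MAF genes and 32.7% and 6.03% of all protein-coding genes. These shares were not matched for the number of TSSs. NFE2L2 had 44 distinct TSSs, NFE2L1 21 and the others of the list 3 to 11, against 7, 3 and 3 for MAFF, MAFG and MAFK. KEAP1, the adaptor that targets NRF2 for degradation, had a peak of 648.88 at 70 bp from a TSS, below that of MAFG. NFE2L2, which encodes NRF2, had 449.59 at 138 bp, and NFE2L1, which encodes NRF1 itself, had 220.44 at 424 bp. NFE2L3, another CNC factor, had 66.71 at 143 bp, and BACH1, a haem-regulated repressor, had 78.15 at 166 bp. Both of these fell below 91.86, the median score of all peaks. BACH2, a related repressor of lymphoid cells, had its nearest peak at 8634 bp with 166.98. NFE2, the CNC factor of erythroid cells and megakaryocytes, had no peak within 50 kb.

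The large MAF genes encode factors with a transactivation domain. Of the 3 examined, MAF, MAFA and NRL, 2 had a peak within 50 kb and 1 within 2 kb, beside the same 32.7% and 6.03%. NRL, a factor of photoreceptor cells, had a peak of 115.16 at 827 bp, and MAFA, a factor of pancreatic beta cells, had one of 229.3 at 24080 bp. The nearest peak of MAF lay 370445 bp away. With 3, 7 and 3 genes, the lists were not tested against each other.

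**Figure D5:**
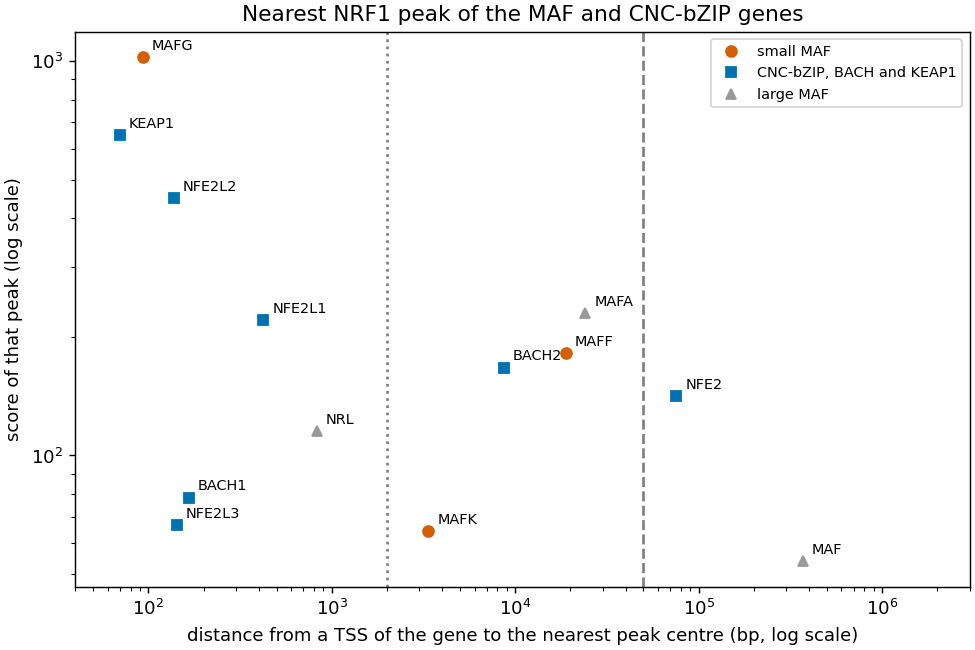
Score of the peak nearest to each small MAF, CNC or BACH, KEAP1 and large MAF gene (y axis, log scale) against its distance from a TSS (x axis, bp, log scale). The dotted and dashed lines stand at 2 kb and 50 kb, and MAFG, at 93 bp with 1022.83, has the highest score of the genes shown.

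When each peak was assigned to the nearest protein-coding TSS within 50 kb, MAFG kept 2 peaks, MAFK 1 and MAFF 0. Among the 501 genes with 2 assigned peaks, the highest score of MAFG was most like that of HMOX1, which encodes haem oxygenase 1, with 1008.48, and of IPO7, a nuclear import receptor, with 941.0. Among the 2720 genes with 1 assigned peak, MAFK with 64.22 was most like SLC25A13, a mitochondrial aspartate and glutamate carrier, with 64.21, and TAOK3, a kinase, with 64.2.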

How the data were processed

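One NRF1 ChIP library of MG132-treated HCT116 cells was analysed, and the input library was not analysed here. Per the submitters' processing notes and methods, the authors extracted single-end reads with bcl2fastq in CASAVA 1.8.2, mapped them to hg19 with Bowtie2 2.2.6 and called peaks with MACS 1.4.2 on this library. Which MACS settings and control were used, and whether duplicates were removed, is not given in the sources used here. The file the authors deposited holds peak positions with a score for each (−log10 of the p-value multiplied by 10), used here to rank peaks within the list. No read counts were used, so the depth is unknown, and with 1 library no test was run.

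Peak positions were converted to 1-based coordinates. TSSs, exons and sequence came from the GRCh37 genome (the same build as hg19) and GENCODE v44lift37. AREs were searched in 5673 peaks. The 10 left out were 5 on contigs and 5 with undetermined bases. The canonical transcript is the one so tagged by the annotation. Members and lists were chosen with earlier results of these data known. Genes named are the 3 members, the CNC, BACH and KEAP1 list, the large MAF list (MAF, MAFA and NRL, while a further gene of that list and the ARE sequence of 1 member peak are not reported here), the genes nearest to member peaks, and for each member the 2 genes with equally many assigned peaks and the closest highest score. PSMD14 and UNKL were named after their values were seen, as the genes above MAFG. The search and the assignment to genes were tested on simulated data. Alternatives were windows of 10 and 100 kb, a score of at least 100, edge distances, canonical TSSs, merged intervals (500 bp), nearest-gene assignment, the central 200 bp, the longer form, flanks and all annotated genes. Scripts ran on Python 3.11.15 with pysam 0.24.0 for sequence, pandas 2.3.3 and numpy 2.4.6 for tables, scipy 1.17.1 for intervals and matplotlib 3.10.9 for plots.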

Additional observations from a re-analysis of the deposited data

How the results depend on the processing

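The counts of peaks depended on the window and on the rule that links a peak to a gene, and the strong MAFG peak did not. The highest score of MAFG was 1022.83 under each of the 7 alternatives run for it. These alternatives only select among deposited scores, so this value was fixed by the position and score of that peak. With a window of 10 kb, MAFF had 0 peaks and MAFK 1, with a highest score of 64.22, and 4 peaks in all had an ARE. With nearest-gene assignment, MAFF had 0 peaks, MAFG 2 and MAFK 1, with a highest score of 64.22, and 3 peaks had an ARE. With a score of at least 100, MAFG had 2 peaks and MAFK 1, 5 peaks had an ARE, and the share of protein-coding genes with a peak was 17.6% within 50 kb and 3.01% within 2 kb. Over all annotated genes these shares were 24.6% and 3.03%. The longer form was present in 4 peaks, and the flanks held an ARE at 3 peaks on the lower side and 4 on the higher. The highest score of MAFF had no value with 10 kb or nearest-gene assignment. The other 37 values run kept their level, which means within 1.5 times for counts, within their interval for shares and unchanged for highest scores. Among them were those for 100 kb, edge distances, canonical TSSs and merged intervals. The 100 kb window nevertheless raised MAFG from 4 to 6 peaks, at the 1.5 limit, and MAFK from 3 to 4. No paired analysis was possible because 1 library was analysed. A single library without replicates, untreated cells or read counts leaves the error of every score and the effect of MG132 on these peaks unmeasured, and nearness to a TSS does not show which gene a peak acts on.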

Other observations

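A window of 100 kb held 3 further peaks, 2 of MAFG and 1 of MAFK. The nearer MAFG peak (chr17:79935775-79936317), 50435 bp upstream of the nearest MAFG TSS, scored 123.77, ranked 1893 and was centred 16 bp upstream of a TSS of ASPSCR1, with an ARE 6 bp from its centre. The MAFK peak (chr7:1502105-1502674), 67949 bp upstream of MAFK, scored 142.33. The nearest members inside the limit were the PSMG3 peak at 32006 bp and the TMEM184B peak at 27463 bp.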
